A study of Caenorhabditis elegans with 2 samples.

Results

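The cytosolic ribosomal protein genes of Caenorhabditis elegans were taken as the protein-coding genes whose symbol is rpl- or rps- followed by a number, with or without a decimal or letter suffix, in Ensembl release 115. The pattern gave 77 genes of the 19985 protein-coding genes, 46 for proteins of the large subunit and 31 for those of the small one. Symbols alone decided which genes belong, but the group itself was picked with earlier results of these data known. Of these 77 genes, 19 (24.7%) had a summit of the authors' optimal peak list in the promoter window, against 2.8% of all protein-coding genes.

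The values come from chromatin immunoprecipitation and sequencing (ChIP-seq) of PHA-2, with 2 biological replicates of 1 group and no second condition. Strain OP687 carries unc-119(tm4063) III and the transgene wgIs687, which gives PHA-2 a GFP-FLAG tag at its C terminus, and the tag was pulled down with an antibody against GFP. The worms were pooled male and female late embryos, used whole, 3 h after synchronisation by egg bleaching, and chromatin was sonicated. Because the whole embryo was used, the cells in which a summit arose are not known from these lists, and a peak present in fewer cells cannot be told apart from a weaker peak in many. A single control, not analysed here, served for calling peaks in either replicate. The pha-2 locus itself had no summit in any of the 4 lists within the window used for the other genes, so it gives no check of the tag.

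PHA-2 is a homeodomain protein of the Hex family, known for its part in forming the isthmus of the pharynx, the feeding organ. Ribosomal proteins and ribosomal RNA together build the ribosome: the small subunit reads the messenger RNA and the large subunit joins the amino acids. The genes for these proteins are among the most highly expressed of any growing cell, and their products are needed in matched amounts. Some carry small nucleolar RNAs, which guide the modification of ribosomal RNA, in their introns.

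The sequences under the strongest summits show what was recovered. Each is a window of 75 bp to either side of the best pooled summit, read 5′ to 3′ on the strand of the gene from the RefSeq WBcel235 genome, which is the ce11 assembly of the lists. No window shown overlaps an annotated exon. Capitals mark, on either strand, 4 six-base words that are described further on. The first 4 windows are among those of highest pooled signal: rpl-15 at chrIV:654848-654998, minus strand, rps-28 at chrIV:1659182-1659332, plus strand, rpl-20 at chrIV:4750024-4750174, minus strand and rps-23 at chrIV:12391275-12391425, minus strand.
rpl-15: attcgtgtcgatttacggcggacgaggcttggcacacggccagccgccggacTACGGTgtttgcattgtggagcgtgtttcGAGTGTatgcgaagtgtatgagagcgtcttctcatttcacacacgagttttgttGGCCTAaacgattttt
rps-28: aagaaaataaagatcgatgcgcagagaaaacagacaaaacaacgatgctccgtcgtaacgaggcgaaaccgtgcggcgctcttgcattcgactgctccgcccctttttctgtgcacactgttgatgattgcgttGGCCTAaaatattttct
rpl-20: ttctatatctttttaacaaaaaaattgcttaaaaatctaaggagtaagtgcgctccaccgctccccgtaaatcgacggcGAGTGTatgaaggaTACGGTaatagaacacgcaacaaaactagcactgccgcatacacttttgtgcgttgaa
rps-23: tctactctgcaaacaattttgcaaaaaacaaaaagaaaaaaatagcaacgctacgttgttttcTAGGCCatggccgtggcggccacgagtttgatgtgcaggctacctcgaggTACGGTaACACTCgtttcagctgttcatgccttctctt
All 4 windows hold at least 1 of the marked words, and rpl-15 and rps-23 each hold 3 of them.

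For each gene the best summit was read between 1000 bp before and 500 bp after the annotated 5′ end. Signal is the value the authors' peak caller gave the peak, in units of its own, and a rank counts from 1 at the highest signal of a list. In the pooled relaxed list of 30000 peaks, 66 of the 77 ribosomal protein genes (85.7%) had a summit, against 39.6% of all protein-coding genes. Replicate 1, with 23371 peaks, gave 66 of the 77 genes (85.7%), against 33.9% of all protein-coding genes. Replicate 2, with 24336 peaks, gave 61 genes (79.2%), against 34.6% of all. Both replicates had a summit at 57 genes (74%), against 21.5% of all. The 66 genes share 63 distinct pooled peaks, because the divergent pairs rpl-24.1 and rps-10, rpl-39 and rps-30, and rpl-36 and rps-14 each read the same peak. The 19 genes with an optimal summit had 19 separate peaks.

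The peaks at these genes were also high in the lists. The median best pooled signal was 87.9 for the 66 ribosomal protein genes and 52.4 for the 7922 protein-coding genes with a summit, and the median ranks were 2155.5 and 11060. In replicate 1 the medians were 45.7 for the ribosomal protein genes and 32.0 for all protein-coding genes, and in replicate 2 they were 42.6 and 31.5. Placed among the protein-coding genes with a pooled summit, the median ribosomal protein gene stood at percentile 84.7. At or above percentile 90 stood 22 of them, at or above 95 stood 12, and at or above 99 stood 2. The very strongest peaks were mostly elsewhere: 1 of the 77 genes was reached by the 100 highest pooled peaks and 11 (14.3%) by the 500 highest, against 0.28% and 1.59% of all protein-coding genes. Among the 5000 highest pooled peaks the count was 47 genes (61%), against 11.2% of all.

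**Figure D1:**
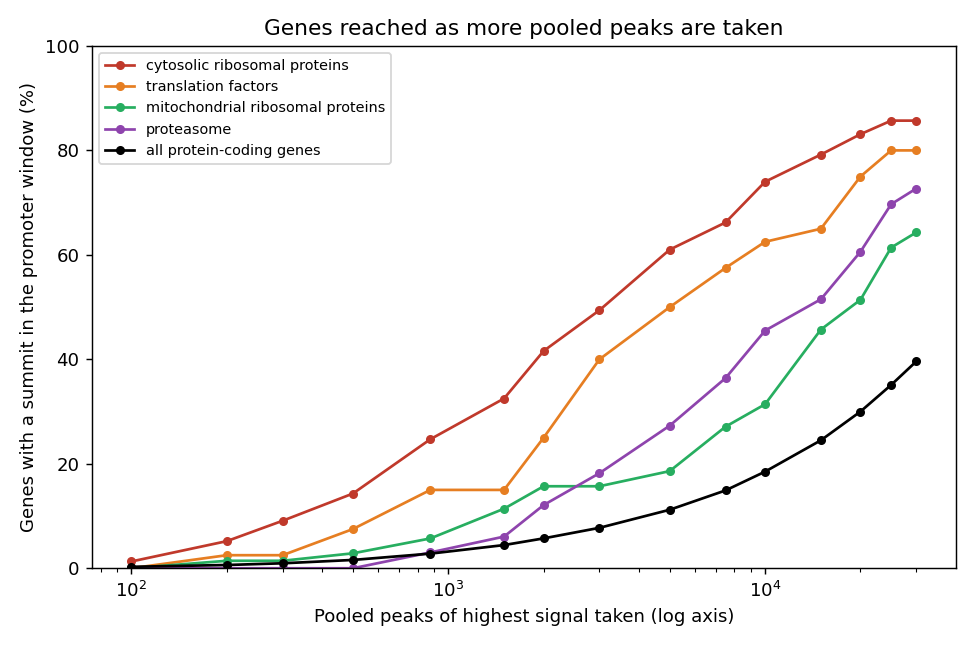
Share of genes (percent) with a summit in the promoter window as more of the highest pooled peaks are taken (log axis), for the cytosolic ribosomal proteins, 3 other gene groups and all protein-coding genes. The line of the cytosolic ribosomal proteins is the uppermost at every point and reaches 85.7%, where all protein-coding genes reach 39.6%.

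The proteins of the large subunit gave the 2 strongest peaks. The gene for RPL-3, which lies close to the centre where peptide bonds form, had a best pooled signal of 376, with 184 in replicate 1 and 183 in replicate 2, at 244 bp upstream of its 5′ end. The gene rpl-15, which carries 2 annotated small nucleolar RNAs, had 331 pooled, 181 in replicate 1 and 152 in replicate 2, at 347 bp upstream. These 2 were also the only members whose pooled peak was narrower than the usual 456 bp, at 198 bp for rpl-3 and 124 bp for rpl-15. The gene rpl-20 had 252 pooled, 128 in replicate 1 and 119 in replicate 2, at 321 bp upstream. For rpl-12, whose product forms the base of the stalk that recruits translation factors, the values were 181 pooled, 81.6 in replicate 1 and 95.4 in replicate 2, at only 61 bp upstream. The gene rpl-35, whose product lies near the mouth of the exit tunnel of the growing peptide, had 171 pooled, 99.2 in replicate 1 and 82.0 in replicate 2. In each replicate list the signals of rpl-3, rpl-15 and rpl-20 were all above those of rpl-12 and rpl-35.

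The 4 remaining large-subunit genes with an optimal summit lay close above the edge of the list. The gene rpl-43 had 131 pooled, 73.0 in replicate 1 and 53.4 in replicate 2, and its summit was the most distant of all, at 742 bp upstream. The gene rpl-7A had 129 pooled, 64.3 in replicate 1 and 61.9 in replicate 2. For rpl-24.2 the values were 123 pooled, 55.5 in replicate 1 and 63.3 in replicate 2. The gene rpl-6 came last, with 122 pooled, 60.6 in replicate 1 and 61.9 in replicate 2. By rank the replicates were closest for rpl-7A, at 963 in replicate 1 and 907 in replicate 2, and farthest apart for rpl-43, at 689 and 1459.

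The small subunit gave the next strongest peak after rpl-3 and rpl-15. The gene rps-28, for a protein by the exit of the messenger RNA channel, had 260 pooled, 139 in replicate 1 and 120 in replicate 2, at 434 bp upstream. The gene rps-26, for its neighbour at that exit, had 209 pooled, 108 in replicate 1 and 98.0 in replicate 2. This summit is the only one among the ribosomal protein genes within 200 bp of a small nucleolar RNA gene, and it lies 32 bp from the 5′ end of tmem-107. For rps-23, whose product reaches into the decoding centre, the values were 192 pooled, 104 in replicate 1 and 77.9 in replicate 2. The gene rps-20, for a protein of the head, had 228 pooled, 134 in replicate 1 and 86.8 in replicate 2. The gene rps-19, for another head protein that is altered in people with Diamond-Blackfan anaemia, had 181 pooled, 119 in replicate 1 and 60.7 in replicate 2. By rank the replicates were closest for rps-28 and rps-26, at 163 in replicate 1 and 180 in replicate 2 for rps-28 and at 283 and 267 for rps-26, and they were farthest apart for rps-19, at 222 and 960.

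The other 5 small-subunit genes with an optimal summit had lower values. The gene rps-12 had 166 pooled, 86.5 in replicate 1 and 77.0 in replicate 2. The gene rps-24 had 141 pooled, 72.4 in replicate 1 and 73.6 in replicate 2, at 647 bp upstream. By rank both stood among the 878 highest peaks of each replicate, at 456 in replicate 1 and 479 in replicate 2 for rps-12 and at 708 and 551 for rps-24. The gene rps-4 had 134 pooled, 48.4 in replicate 1 and 85.7 in replicate 2, so its rank was 2291 in replicate 1 and 370 in replicate 2. For rps-21 the values were 133 pooled, 56.3 in replicate 1 and 76.0 in replicate 2. The gene rps-15 went the other way from rps-4, with 132 pooled, 84.9 in replicate 1 and 46.1 in replicate 2. Of these 5 genes, rps-4 and rps-15 had the most unequal ranks, with rps-15 at 480 in replicate 1 and 2473 in replicate 2.

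**Figure D2:**
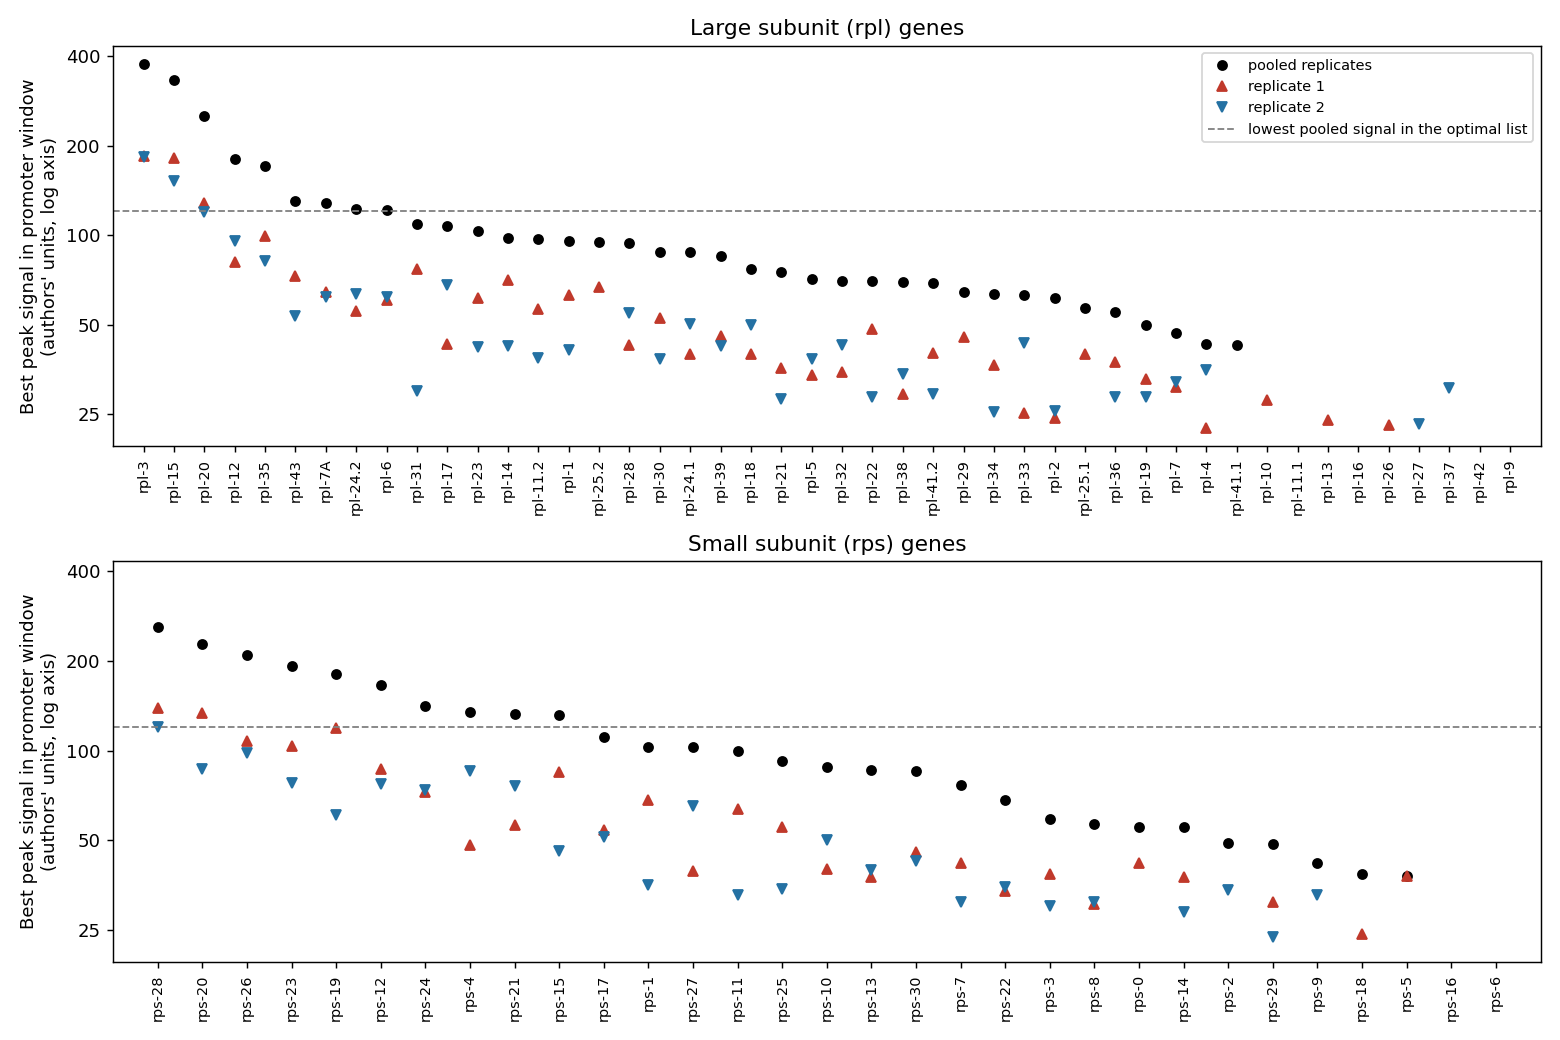
Best peak signal in the promoter window (authors' units, log axis) of each ribosomal protein gene in the pooled, replicate 1 and replicate 2 lists, ordered by pooled signal within each subunit. The dashed line is the lowest pooled signal of the optimal list, 120, and 19 genes lie above it; genes with no symbol plotted had no summit in that list.

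The edge of the optimal list at a signal of 120 cuts through a continuous run of values. Just inside it stood rpl-6 and rpl-24.2. Just outside, rps-17 had 111 pooled, 54.1 in replicate 1 and 51.1 in replicate 2. The gene rpl-31 had 109 pooled, 76.9 in replicate 1 and 30.0 in replicate 2, and rpl-17, for a protein that lines the exit tunnel, had 108 pooled, 43.0 in replicate 1 and 67.8 in replicate 2. The next 3 each had a pooled signal of 103: rpl-23, rps-1 and rps-27. The replicates placed rpl-31 and rpl-17 in opposite order.

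Both subunits were represented along the whole range. Optimal summits were found at 9 of the 46 large-subunit genes (19.6%) and at 10 of the 31 small-subunit genes (32.3%). Pooled summits were found at 37 large-subunit genes (80.4%) and 29 small-subunit genes (93.5%), with median signals of 87.8 and 92.5. In replicate 1 the medians were 43.0 for the large subunit and 48.4 for the small, and in replicate 2 they were 42.2 and 44.4. Genes of 1 library are not replicates of a condition, so no test was made of these differences.

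At the low end of the genes with a pooled summit, rps-5 had 37.9 pooled and 37.9 in replicate 1 and no summit in replicate 2. The gene rps-18 had 38.4 pooled and 24.2 in replicate 1, again with none in replicate 2. For rps-9 the values were 42.1 pooled and 32.7 in replicate 2, with none in replicate 1. The gene rpl-41.1 had 42.8 pooled and no summit in either replicate. The gene rpl-4, for a protein that lines the exit tunnel, had 43.1 pooled, 22.5 in replicate 1 and 35.2 in replicate 2, and rpl-7 had 46.9 pooled, 30.9 in replicate 1 and 32.2 in replicate 2. All 6 stand below the median of all protein-coding genes with a summit, 52.4.

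Another 11 genes had no pooled summit: rpl-9, rpl-10, rpl-11.1, rpl-13, rpl-16, rpl-26, rpl-27, rpl-37, rpl-42, rps-6 and rps-16. Of these, rpl-10, whose product is among the last to join the large subunit, had 27.9 in replicate 1, rpl-13 had 23.9 there and rpl-26 had 23.0. In replicate 2 rpl-37 had 30.6 and rpl-27 had 23.2. The remaining 6, which include rps-6, the gene for the classic substrate of S6 kinase, had no summit in any of the 4 lists. A missing summit says only that no peak was listed in the window, and since no list gives read counts, the depth behind it is unknown. A summit in 1 replicate alone was found at 9 genes in replicate 1 and at 4 in replicate 2. Such summits were common among all 19985 protein-coding genes too, of which 6776 had a summit in replicate 1, 6911 in replicate 2 and 4296 in both. The 9 are rpl-10, rpl-13, rpl-25.1, rpl-25.2, rpl-26, rpl-29, rps-0, rps-5 and rps-18, and the 4 are rpl-27, rpl-37, rps-2 and rps-9. The strongest of them was rpl-25.2, with 94.5 pooled and 67.0 in replicate 1.

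Some genes come in pairs that share a symbol number, and their values were unlike. RPL-11 binds the 5S ribosomal RNA; its gene rpl-11.1 on chromosome V, described as the copy needed by the germline, had no summit in any list. Its paralogue rpl-11.2 on chromosome X had 97.0 pooled, 56.7 in replicate 1 and 38.8 in replicate 2. The gene rpl-25.2 on chromosome I had the values just given at 137 bp upstream, while rpl-25.1 on chromosome X had 56.9 pooled at 25 bp downstream, the only best pooled summit of a ribosomal protein gene inside the gene. For the pair that shares the symbol rpl-24, taken by symbol like all the genes here, with no further check that each encodes a protein of the finished ribosome, rpl-24.2 had the optimal summit described above, and rpl-24.1 had 87.8 pooled, 40.1 in replicate 1 and 50.3 in replicate 2. For the small protein RPL-41, rpl-41.2 had 69.1 pooled, 40.2 in replicate 1 and 29.2 in replicate 2, and rpl-41.1 had a summit in the pooled list alone. A further gene, rpl-36.A, falls outside the symbol pattern, and it had 60.9 pooled, 36.9 in replicate 1 and 22.4 in replicate 2 with no optimal summit.

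The summits sat mostly in a belt upstream of the genes, a position that does not show to which gene a summit belongs. For 37 of the 66 best pooled summits, the 5′ end of another gene lay nearer, a count not given here for all protein-coding genes. When only summits nearest to the gene's own 5′ end were kept, 41 of the 66 ribosomal protein genes still had a pooled summit. Of the 7922 protein-coding genes with a pooled summit, 6256 still had one. Divergent neighbours that start within 1000 bp were also commoner here, at 59.7% of the 77 genes against 17.7% of all protein-coding genes. Of the 66 best pooled summits, 65 (98.5%) lay upstream of the 5′ end, against 72.8% for all protein-coding genes with a summit, although 1000 of the 1500 bp searched are upstream for either set. Within 100 to 500 bp upstream lay 51 of them (77.3%), against 35% of all. The median position was 313.5 bp upstream, with quartiles at 418.5 and 222 bp upstream, whereas for all protein-coding genes the median was 225.5 bp upstream and the upper quartile 28 bp downstream. Large-subunit and small-subunit genes had median positions of 309 and 316 bp upstream. The belt was found in each replicate alone, with medians of 303 bp upstream in replicate 1 and 270 bp upstream in replicate 2. Among optimal summits the 2 shares were closer: 78.9% of the 19 at ribosomal protein genes and 58% of the 560 at all protein-coding genes lay 100 to 500 bp upstream. Worm messages are often trans-spliced, and the annotated 5′ end can then be the splice site rather than the start of transcription, a distance that these lists do not measure.

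**Figure D3:**
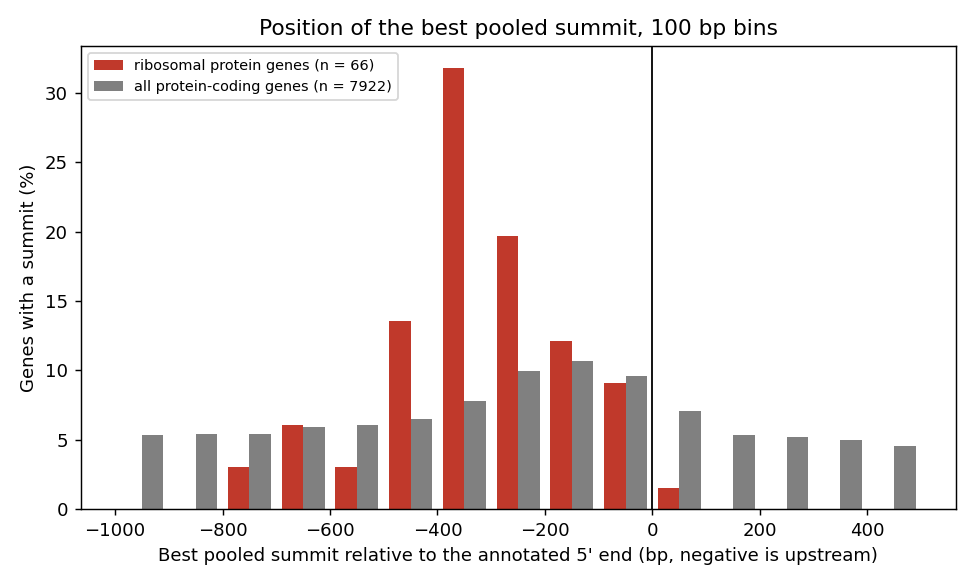
Position of the best pooled summit relative to the annotated 5′ end (bp, negative upstream) in bins of 100 bp, as a percentage of the 66 ribosomal protein genes and of the 7922 protein-coding genes with a pooled summit. The bin from 400 to 300 bp upstream holds 31.8% of the ribosomal protein genes and 7.83% of all protein-coding genes, and no ribosomal protein gene has its best summit over 100 bp inside the gene.

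The replicate lists were compared gene by gene. Over the 57 genes with a summit in both, best signals gave Spearman's rho of 0.696 and Pearson's r on log10 signals of 0.775, and r was 0.708 without the 2 genes farthest from the median. Over the 4296 protein-coding genes with a summit in both, rho was 0.534 and r was 0.740. For the 19 genes with an optimal summit rho was 0.623, and for the other 38 it was 0.305. The authors name the optimal list as thresholded by the irreproducible discovery rate (IDR), a measure of agreement between replicates. The list also holds the highest pooled signals, so its closer values are in part fixed by how it was made. These are descriptions across genes that share libraries and a control. The summits of the 2 replicates lay a median of 66 bp apart at the ribosomal protein genes and 100 bp apart at all protein-coding genes, and within 50 bp at 45.6% and 35% of them. They lay over 200 bp apart at 13 of the 57 and 1406 of the 4296 genes, where the compared signals may come from different peaks. At the 19 genes with an optimal summit the median distance was 17 bp, and 15 of the 19 (78.9%) lay within 50 bp. When the same number of peaks as the optimal list, 878, was taken from each replicate, 11 of these 19 genes were reached in both replicates, 6 in 1 of them, and 2 in neither. No such count for all protein-coding genes is given here, so whether these numbers are usual was not tested.

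Some genes ranked far apart in the replicates. The 4 with the smallest ratio of replicate 1 rank to replicate 2 rank were rpl-31, rps-11, rps-1 and rpl-22. For rpl-31 the ranks were 609 in replicate 1 and 10982 in replicate 2, a ratio of 0.0555, and for rps-11 they were 975 and 8537. For rps-1 they were 811 and 6555, and for rpl-22, 2269 and 12614. All 4 thus ranked far higher in replicate 1. The 2 replicate summits lay 6 bp apart for rpl-31, 10 bp for rps-11 and 2 bp for rps-1. For rpl-22 they lay 377 bp apart, so its 2 ranks may belong to different peaks. The 4 with the largest ratio were rps-4, rps-27, rpl-33 and rpl-17. For rps-4 the ratio was 6.19, and for rps-27 it was 5.90, from rank 4518 in replicate 1 and rank 766 in replicate 2. For rpl-33 the ranks were 16665 and 3106, and for rpl-17 they were 3356 and 676.

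**Figure D4:**
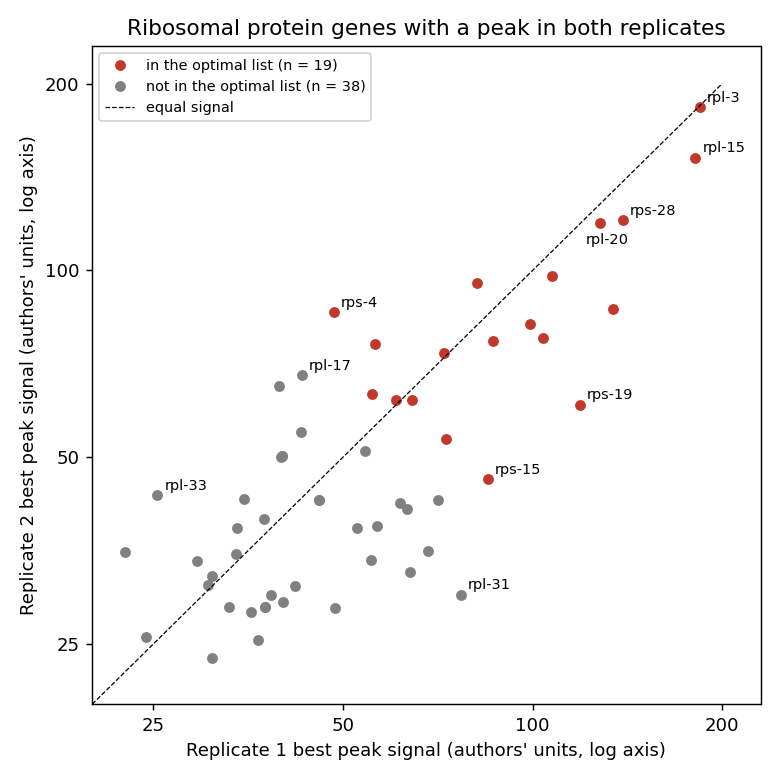
Best peak signal in replicate 1 (x axis) and replicate 2 (y axis), in the authors' units on log axes, for the 57 ribosomal protein genes with a peak in both, in colour for the 19 in the optimal list. The points of rpl-3, rpl-15, rps-28 and rpl-20 are the highest in replicate 2 and are joined by rps-20, with 134, in replicate 1, while the grey points below them scatter widely about the line of equal signal. That line is a guide for the eye only, since each list was called separately.

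A summit in the window of a ribosomal protein gene can also be the summit of its neighbour. A protein-coding gene that starts within 1000 bp and runs the other way stood beside 46 of the 77 ribosomal protein genes (59.7%), against 17.7% of all protein-coding genes. Of those 46, 11 (23.9%) had an optimal summit, against 6.53% of all protein-coding genes with such a neighbour. Of the 31 ribosomal protein genes without one, 8 (25.8%) had an optimal summit, against 2.00% of the others. The optimal share of ribosomal protein genes was therefore much the same with and without a divergent neighbour. By distance alone, the nearest annotated 5′ end of any kind was that of the ribosomal protein gene itself for 9 of the 19 optimal summits: rpl-3, rpl-15, rps-28, rpl-12, rpl-35, rps-4, rpl-7A, rpl-24.2 and rpl-6. For the other 10 another 5′ end was nearer, in 8 of them that of a protein-coding gene, such as ekl-4 at 152 bp from the summit of rps-20, hsr-9 at 139 bp from that of rps-19, and dpm-3 at 237 bp from that of rps-23. When a summit was given to a ribosomal protein gene only where its own 5′ end was the nearest, 9 genes (11.7%) had an optimal summit, against 1.55% of all protein-coding genes counted the same way. Which gene of such a pair a peak acts on was not tested.

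Small nucleolar RNA genes lie inside 13 of the 77 ribosomal protein genes (16.9%), against 0.961% of all protein-coding genes. Of the 13 hosts, 6 (46.2%) had an optimal summit, against 16.1% of all hosts. Of the 64 ribosomal protein genes that are no hosts, 13 (20.3%) had one, against 2.67% of all non-hosts. The hosts with an optimal summit are rpl-6, rpl-7A, rpl-15, rps-4, rps-12 and rps-23. As the summits of these 6 lie upstream of the gene, the intronic RNA genes themselves are not under them, and none lies within 200 bp of a tRNA, small nuclear or small nucleolar RNA gene.

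The genes were spread unevenly over the chromosomes, and so were the optimal summits. On chromosome IV 8 of 17 ribosomal protein genes had an optimal summit, against 2.35% of all protein-coding genes there. On chromosome III it was 5 of 18, against 4.05% of all, on chromosome I 5 of 23, against 4.13%, and on chromosome II 1 of 9, against 2.58%. None of the 8 genes on chromosome V and the 2 on chromosome X had an optimal summit, where 1.8% and 2.42% of all protein-coding genes did. The sole optimal summit on chromosome II was that of rpl-43.

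Other gene groups of protein synthesis, and the proteasome, were read in the same way. Among 40 translation factors 6 (15%) had an optimal summit, against 2.8% of all protein-coding genes: eif-3.C, eif-3.E, iff-2, eef-1A.1, eef-1A.2 and eif-2Bgamma. A pooled summit was found at 80% of them, against 39.6% of all protein-coding genes, with a median signal of 79.8. Among 70 proteins of the mitochondrial ribosome, which is built separately and makes the membrane proteins encoded in mitochondrial DNA, 4 (5.71%) had an optimal summit, and 64.3% had a pooled one, with a median signal of 54.0. The 4 were mrpl-23 with 249, mrps-35 with 190, mrpl-39 with 142 and mrps-34 with 139. Both shares of the mitochondrial ribosome were above those of all protein-coding genes, whereas its median was close to their 52.4. Of 21 genes for ribosome biogenesis, the making of ribosomes and its control, 14 (66.7%) had a pooled summit. Their median pooled signal of 82.9 was the nearest of these groups to the 87.9 of the ribosomal protein genes. In replicate 1 their median, 36.1, was below those of the mitochondrial ribosome (37.0), the proteasome (39.2) and the translation factors (40.9). In replicate 2 it was 36.9, above the 30.6, 34.4 and 31.7 of the same groups in that order. Among the 5000 highest pooled peaks the share of the ribosome biogenesis genes was 47.6%, against 11.2% of all protein-coding genes. An optimal summit was found at 2 of the 21 (9.52%): fib-1, for the nucleolar methylase fibrillarin, with 160, and larp-1, known in mammals as a regulator of ribosomal protein messages, with 146. Of 33 proteasome genes, a large complex not involved in translation, rpn-7 alone had one (3.03%), and 72.7% had a pooled summit, with a median signal of 59.5.

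The cytosolic ribosome also has components whose genes carry other symbols, and 0 of 6 of these had an optimal summit. The gene ubl-1, for a ubiquitin-like protein fused to a small-subunit protein, had 106 pooled, 61.3 in replicate 1 and 31.9 in replicate 2. The gene ubq-2, for ubiquitin fused to a large-subunit protein, had 95.9 pooled, 61.9 in replicate 1 and 28.0 in replicate 2. Both stood above the pooled median of the ribosomal protein genes, 87.9, but below their median in replicate 2, 42.6. The gene rack-1 had 46.1 pooled, and of the stalk proteins rla-1 had 38.5, rla-0 had 33.9 and rla-2 had no pooled summit. By rank rla-0 stood higher in replicate 1, at 3336, than in the pooled list, at 29542. Its replicate 1 signal of 43.1 was close to the median of 45.7 of the ribosomal protein genes in that list.

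The bases under the summits were searched first for 8 short motifs, each on both strands, in the 63 distinct summit windows of the ribosomal protein genes and the 6733 windows of the other protein-coding genes. The homeodomain core TAATTG was found in 9.52% of the ribosomal protein windows and 10.6% of the others, and the core TAATTA in 3.17% and 7.93%. At optimal summits TAATTG was found in 5.26% of 19 and 6.14% of 391 windows. The ribosomal protein summits thus did not carry the 2 homeodomain cores more often than other summits did. The T-block TTTTTT was found in 63.5% and 55.9%, and at optimal summits in 63.2% and 38.9%. The repeat GAGAGA was found in 17.5% and 12.7%, but at optimal summits in 10.5% and 22%. Over all pooled summits, the E-box CACGTG was found in 3.17% and 2.69%, the TATA box TATAAA in 12.7% and 16.9%, the GATA site AGATAA in 4.76% and 7.74%, and TTTCAG, the letters of a worm splice acceptor, in 17.5% and 25.4%. In the 300 bp promoters, from 250 bp before to 50 bp after the 5′ end, TTTTTT was found in 92.2% of the ribosomal protein genes and 80% of the other protein-coding genes, and TTTCAG in 70.1% and 51.6%. A match says only that these letters are present. The windows had a median GC content of 43.0% at ribosomal protein summits and 36.4% at the others, and of 45.7% and 45.0% at the optimal ones.

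A count of all 2080 six-base words, each counted with its reverse complement, then showed letters that recur at these genes. This search was made after the sequences had been seen, and words picked for the largest difference among so many will differ by construction, so the shares are a description. ACCGTA was in 20 of the 63 ribosomal protein windows (31.7%) and in 4.8% of the others, and GAGACC was in 20 (31.7%) and 5.84%. ACACTC was in 17 (27%) and 6.48%, and GGCCTA was in 14 (22.2%) and 4.16%. These 4 are the words marked in capitals above. They are among the 8 words of largest difference, where GCGAGA, like CGAGAC and also AGACCC, overlaps GAGACC, and the remaining word ACGAAA, in 33.3% and 12.3%, was also in 11.9% of windows 500 bp away. At least 1 of the 4 words was in 61.9% of the ribosomal protein windows and 19.1% of the others, at least 2 were in 33.3% and 2.08%, and at least 3 were in 12.7% and 0.0891%. In 126 windows placed 500 bp to either side of the ribosomal protein summits, at least 1 word was found in 7.14% and at least 2 in none. The flanks were thus poorer in the words than the summit windows for which the words were picked. ACGAAA, with its higher share in the flanks, was not kept, so the low flank shares are also in part fixed by the choice of words.

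**Figure D5:**
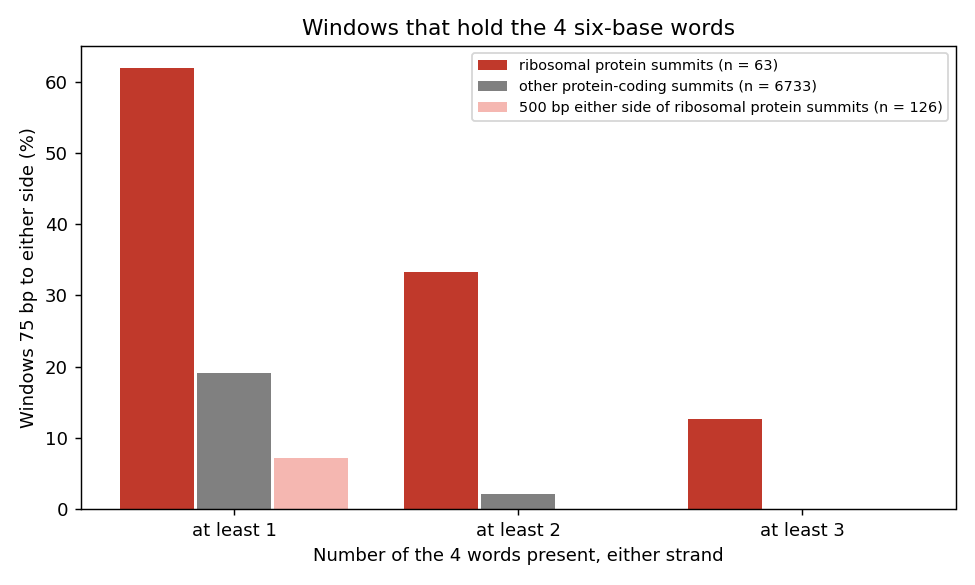
Share of windows of 75 bp to either side of a summit (percent) that hold at least 1, 2 or 3 of the 4 six-base words on either strand, at ribosomal protein summits, at summits of other protein-coding genes, and 500 bp to either side of the ribosomal protein summits. At least 2 words are in 33.3% of the ribosomal protein windows, 2.08% of the others and none of the flanking ones.

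The words were found at both strong and weak peaks, though not each in equal shares. At optimal summits at least 2 of the words were in 36.8% of the ribosomal protein windows and 2.81% of the others, a share close to that over all pooled summits of these genes. In the whole 1000 bp upstream, at least 2 of the words were found at 10 of the 19 genes with an optimal summit (52.6%), 33 of the 47 with a weaker pooled summit (70.2%) and 6 of the 11 with none (54.5%), against 21.7% of all protein-coding genes. GAGACC was upstream of 31.6% of the 19 and 61.7% of the 47, against 22.4% of all, and ACCGTA of 42.1% and 57.4%, against 24.7%. The other words went the other way, ACACTC at 52.6% and 44.7%, against 27.4%, and GGCCTA at 47.4% and 42.6%, against 14%. The windows of rpl-6, an optimal gene at chrIII:7208065-7208215, plus strand, of rpl-29 at chrIV:13881910-13882060, plus strand, and of rps-29 at chrIII:793760-793910, plus strand, show 3 or more of the words at peaks of unlike strength.
rpl-6: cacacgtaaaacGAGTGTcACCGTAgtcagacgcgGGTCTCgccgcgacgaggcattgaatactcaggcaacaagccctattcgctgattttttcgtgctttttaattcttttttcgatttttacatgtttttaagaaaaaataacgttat
rpl-29: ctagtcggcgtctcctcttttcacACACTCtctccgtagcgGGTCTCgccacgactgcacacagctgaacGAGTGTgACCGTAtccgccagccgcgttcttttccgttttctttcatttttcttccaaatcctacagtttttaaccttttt
rps-29: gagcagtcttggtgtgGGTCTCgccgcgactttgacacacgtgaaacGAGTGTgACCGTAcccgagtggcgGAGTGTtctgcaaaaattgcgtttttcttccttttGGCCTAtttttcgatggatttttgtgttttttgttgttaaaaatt
The pooled signals were 122 for rpl-6, 64.6 for rpl-29 and 48.6 for rps-29, so the weakest of the 3, below the median of all protein-coding genes, has all 4 words. Conversely rpl-35, with 171, has none of them in its window at chrIII:7854579-7854729, plus strand, shown here as the counterexample.
rpl-35: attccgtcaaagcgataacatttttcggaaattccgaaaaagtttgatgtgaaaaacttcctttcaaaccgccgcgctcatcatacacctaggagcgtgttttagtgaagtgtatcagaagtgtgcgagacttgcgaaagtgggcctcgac
The same was true of the windows of rpl-12, rpl-7A, rps-12, rps-15 and rps-24, so 6 of the 19 optimal windows held none of the words.

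In the 3 windows of rpl-6, rpl-29 and rps-29, GAGTGT, the other strand of ACACTC, is followed after a single base by ACCGTA. This joined pair was found on either strand in the 1000 bp upstream of 14 of the 77 ribosomal protein genes (18.2%) and of 44 of all 19985 protein-coding genes (0.22%). The 14 genes are rpl-1, rpl-6, rpl-11.2, rpl-21, rpl-22, rpl-24.1, rpl-29, rpl-34, rps-7, rps-10, rps-13, rps-18, rps-23 and rps-29, of which rpl-6 and rps-23 had an optimal summit. GGTCTC, the other strand of GAGACC, was often followed by GC, and GGTCTCGC was found upstream of 23 ribosomal protein genes (29.9%) and of 3.86% of all protein-coding genes. Of those 23, rpl-6, rps-4 and rps-21 had an optimal summit, which is 3 of the 19 genes with one (15.8%), beside 17 of the 47 with a weaker summit (36.2%). The joined pair was likewise at 2 of the 19 (10.5%) and 12 of the 47 (25.5%). Neither pattern had its larger share at the genes with an optimal summit.

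The strand and distance of the words were counted too. Upstream of the ribosomal protein genes, ACCGTA stood 30 times on the strand of the gene and 12 times on the other, and GAGACC stood 12 times on the strand of the gene and 34 times on the other. ACACTC stood 18 times on the strand of the gene and 28 times on the other, and GGCCTA 25 and 16 times, so the first pair of words was the more one-sided. Where a gene had both the word and a pooled summit, the nearest copy lay a median of 57 bp from the summit for ACCGTA, 61 bp for GAGACC, 47 bp for ACACTC and 73 bp for GGCCTA. The words were picked from windows of 75 bp to either side of these summits, so the short distances are in part fixed by that choice. Median positions upstream of the 5′ end were 315 bp for ACCGTA, 312.5 bp for GAGACC, 419 bp for ACACTC and 278 bp for GGCCTA. The median of the summits themselves was 313.5 bp upstream.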

How the data were processed

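ChIP-seq peak lists of PHA-2 from 2 replicates of 1 group were used. The authors deposited 4 lists on ce11: 1 relaxed list per replicate, 1 of the pooled replicates and the optimal list of 878 peaks. The optimal list is named as thresholded by IDR, and on these files its peaks are the 878 highest of the pooled list. The signal value is that of the authors' peak caller as deposited; the caller and the aligner were not given in the sources used here, and depth is unknown. Lists on the older assembly were not used. Each list was called separately, so order and differences between replicates are given as ranks, and signals were correlated across lists but not set against each other.

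Genes came from Ensembl release 115, and sequence from the RefSeq WBcel235 genome. A promoter table was not used here, and promoters were cut from the genome instead. The window assignment was checked on simulated summits (Python 3.11.15, numpy 2.4.6, scipy 1.17.1). No p-value was computed. Members, lists and motifs were chosen with earlier results of these data known, and the 4 words after the sequences were seen. Named genes follow a fixed rule: those with an optimal summit, the 6 highest without one, the 6 lowest, those with none or in 1 replicate only, and the 4 most unequal ranks each way; sequences, paralogues and list genes were added. Alternative windows, 5′ ends, lists and filters were tried. The sequence of 1 summit window is not reported here.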

Additional observations from a re-analysis of the deposited data

How the results depend on the processing

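Counting a summit only where the ribosomal protein gene has the nearest 5′ end gave 9 optimal genes in place of 19, 41 pooled genes in place of 66 and a median pooled signal of 69.7 in place of 87.9, against 310 genes, 6256 genes and 50.6 for all protein-coding genes. Taking only the 439 highest peaks of the optimal list gave 11 genes, against 281 of all. With genes without a summit set to 0, the median was 77.2, against 0 for all protein-coding genes. Using 1 replicate in place of both gave 16 to 18 genes for the optimal count, against 2.45% to 2.83% of all protein-coding genes, and 61 to 66 for the pooled count, against 34.6% and 33.9%. The other windows (500 or 2000 bp upstream), the 5′ ends of any transcript, the 5000 highest peaks and the removal of summits near small RNA genes left the optimal count between 17 and 21 (1.92% to 3.68% of all protein-coding genes), the pooled count between 47 and 71 (11.2% to 50.6% of all), and the median between 87.8 and 87.9. No paired analysis was possible because there is 1 group of samples. The lists hold no read counts, so what depth limits cannot be given.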

Other observations

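The joined pair of words, GAGTGT with ACCGTA after a single base, occurs at 34 sites in the whole genome, and 13 of them (38.2%) lie in the 1000 bp upstream of a ribosomal protein gene, which together make up 0.0750% of the genome. Of those 13 sites, 8 (61.5%) lay within 75 bp of a pooled summit, against 3 of the 21 other sites (14.3%), where 4.52% of all bases lie so close to one. GGTCTCGC occurs at 3521 sites, 22 of them upstream of ribosomal protein genes. Of the 22, 16 (72.7%) lay within 75 bp of a pooled summit, against 6.63% of the 3499 others. The letters were chosen because they recur at ribosomal protein summits, so the first share of each pair is fixed in part by that choice.

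Outside the ribosomal protein genes, the groups carried these letters unevenly. Upstream of the 6 ribosome components with other symbols, GAGACC was found at 5 and GGTCTCGC at 3 (rack-1, rla-2 and ubq-2), and the joined pair at 0. Of the 21 ribosome biogenesis genes, 7 (33.3%) had GGTCTCGC upstream: fib-1, garr-1, nol-56, nol-58, nst-1, nucl-1 and rpoa-2. These include genes for proteins of the nucleolar particles that modify ribosomal RNA and for a subunit of RNA polymerase I. GGTCTCGC was found at 2 of 40 translation factors (5%), 4 of 70 mitochondrial ribosomal protein genes (5.71%) and 5 of 33 proteasome genes (15.2%), beside 3.86% of all protein-coding genes. Among the 11 ribosomal protein genes without a pooled summit, which also gave no window to the search, GAGACC was upstream of 6 (54.5%), against 22.4% of all protein-coding genes, and GGCCTA of 4 (36.4%), against 14%. ACCGTA was upstream of 3 (27.3%), against 24.7%, and ACACTC of 3 (27.3%), against 27.4%, which are near the shares of all genes, and the joined pair was upstream of 0.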
